A study of Mus musculus with 6 samples.

Results

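Toll-like receptors are membrane proteins with which cells sense microbial products and nucleic acids. The 10 genes described here, Tlr1 to Tlr9 and Tlr13, were taken by symbol from the 47729 genes counted in mouse epidermis, and each symbol was found in 1 row. The 6 libraries came from wild type C57BL/6 mice whose labelled agent was AKBA gel (3 libraries) or control gel (3 libraries). AKBA commonly stands for the Boswellia resin compound acetyl-11-keto-β-boswellic acid. The sources used here do not state the age of the mice or how long they were treated. The control libraries also carry the letters IMQ, with no explanation. They are a common abbreviation of imiquimod, a drug that activates Tlr7 in mice, and the sources used here do not state whether any of the skin received it. No label ties the libraries to separate animals, so p-values measure the spread between libraries, which may be technical.

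Each receptor has an outer domain that binds its ligand and an inner TIR domain that recruits the adaptors Myd88 or Ticam1. Signalling then runs through kinases of the IRAK family and the ubiquitin ligase Traf6 to the transcription factor NF-κB and to interferon regulatory factors, which switch on cytokine genes. Tlr1, Tlr2, Tlr4, Tlr5 and Tlr6 act mainly at the cell surface on bacterial products, and Tlr3, Tlr7, Tlr8, Tlr9 and Tlr13 sense nucleic acids inside endosomes. In skin the family is known from macrophages and dendritic cells, and some members also from keratinocytes.

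All 10 receptors were detected in every library, with 41 to 544 counts per gene and library, and 9 of them had a lower mean with AKBA gel. The lowest fold changes belonged to the endosomal receptors Tlr13 and Tlr8, at 54.2% and 56.8% of the control level, and only Tlr3 was estimated above control, at 108%. None of the 10 passed edgeR's test at an adjusted p of 0.05, nor did any other of the 17023 genes tested (0%). Without adjustment, 5 of the 10 had a p below 0.05 and were lower, namely Tlr13, Tlr8, Tlr4, Tlr9 and Tlr5, where 7.01% of all tested genes were lower at that level. None was higher, where 6.45% of all tested genes were. In 6 of the 10 the highest AKBA library lay below the lowest control library, where 9.1% of all tested genes had this order. The median log2 fold change of the 10 was -0.48 and that of all tested genes 0.0. The DESeq2 Wald test gave adjusted p-values below 0.05 to Tlr13 (0.00809) and Tlr8 (0.00898), and lower calls to 1.33% of the genes it adjusted.

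Total counts per library ran from 19066045 to 22760432, so 3 counts corresponded to 0.128 to 0.159 CPM, the counts scaled to library size. Along the first principal component of all tested genes (42.1% of the variance), AKBA replicate 2 (-43.8) and control replicate 3 (46.2) lay at opposite ends. With both left out, Tlr13, Tlr8 and Tlr5 had an unadjusted p below 0.05. The libraries held markers of more than epidermis, since summed fibroblast markers reached 19227 to 35815 CPM and summed suprabasal keratinocyte markers 25630 to 63779 CPM. Summed skeletal muscle markers reached 3927 to 7430 CPM. Among them Myh4, picked after its values were seen, ran from 42.7 CPM (AKBA replicate 2) to 2229 CPM (control replicate 1). The part of these tissues in the receptor values was not tested.

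The windows around the start sites of 4 endosomal receptors are printed, those of Tlr8, Tlr13 and Tlr9, which were lower at an unadjusted p below 0.05, and that of Tlr3, which was not. Windows of Tlr4 and Tlr7 were not used here. They are RefSeq sequences on GRCm38.p6 from 250 bases before to 50 bases after a start site, 5′ to 3′ on the gene's strand. Capitals mark GAGGAA, the core bound by the myeloid ETS factor PU.1, or its reverse complement. The Tlr8 window is chrX:167264280-167264579 (minus strand), that of Tlr13 chrX:106143025-106143324 (plus), that of Tlr9 chr9:106222348-106222647 (plus) and that of Tlr3 chr8:45410331-45410630 (minus). The Tlr3 window lies inside the annotated gene, which runs to 45411080, so the annotated 5′ end of Tlr3 was not searched.
Tlr8: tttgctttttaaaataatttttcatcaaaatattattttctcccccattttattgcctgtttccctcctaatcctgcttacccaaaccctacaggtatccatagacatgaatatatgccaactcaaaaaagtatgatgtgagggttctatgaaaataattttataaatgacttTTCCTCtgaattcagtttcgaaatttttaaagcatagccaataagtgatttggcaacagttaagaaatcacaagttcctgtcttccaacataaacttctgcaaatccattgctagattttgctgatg
Tlr13: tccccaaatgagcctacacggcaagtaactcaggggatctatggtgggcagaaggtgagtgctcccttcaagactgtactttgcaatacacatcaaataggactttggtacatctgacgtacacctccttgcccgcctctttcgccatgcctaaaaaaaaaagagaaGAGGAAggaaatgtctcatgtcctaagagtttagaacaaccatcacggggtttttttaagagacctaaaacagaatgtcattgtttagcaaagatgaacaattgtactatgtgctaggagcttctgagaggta
Tlr9: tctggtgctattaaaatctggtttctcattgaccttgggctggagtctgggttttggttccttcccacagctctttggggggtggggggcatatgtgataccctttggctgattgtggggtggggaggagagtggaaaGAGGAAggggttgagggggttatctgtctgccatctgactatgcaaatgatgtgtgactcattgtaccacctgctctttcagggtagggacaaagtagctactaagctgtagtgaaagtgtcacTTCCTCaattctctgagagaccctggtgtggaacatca
Tlr3: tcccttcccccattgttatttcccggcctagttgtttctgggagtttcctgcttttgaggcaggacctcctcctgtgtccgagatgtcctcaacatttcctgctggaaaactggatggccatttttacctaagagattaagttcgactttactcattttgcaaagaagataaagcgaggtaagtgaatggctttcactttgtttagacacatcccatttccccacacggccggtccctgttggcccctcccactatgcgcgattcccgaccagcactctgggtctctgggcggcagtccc

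The motif occurred 1 time in the Tlr8 window, 1 time in that of Tlr13 and 2 times in that of Tlr9, and these letters were not in the Tlr3 window. Its left ends lay 77 bases before the start site in Tlr8, 83 before it in Tlr13, and 112 before and 12 after it in Tlr9. Over both strands, 4 of the 10 windows listed for 8 of the receptors held it, the other being 1 of the 2 Tlr1 windows, against 28.3% of 32851 windows of all genes. The windows of Tlr2, Tlr5 and Tlr6, which also had lower means, did not hold these letters. Of these, Tlr5 was also lower at an unadjusted edgeR p below 0.05 (0.0153). Tlr1, which held the motif in 1 window, was not (0.0857). TGANTCA, read by AP-1 factors, was found in 1 of the 10 windows (Tlr9) against 7.81% of all windows. An interferon response core, GAAA repeated after any 2 bases, was found in 1 of them (Tlr6) against 3.44%. No GAGGAA match overlapped a match of the other motifs. A match is a run of letters and no measurement of binding.

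**Figure D1:**
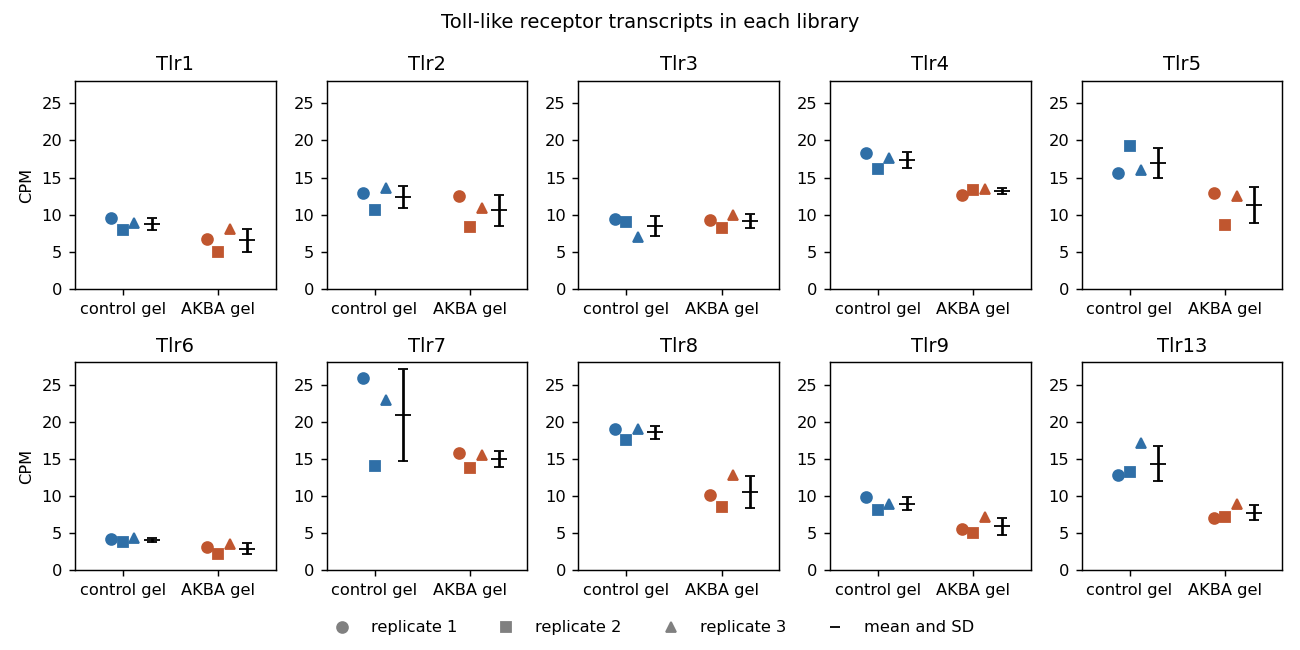
CPM (linear axis from 0) of the 10 receptors in each of the 6 libraries, with control gel in blue, AKBA gel in orange, a marker shape for each replicate, and the mean and SD in black beside the points. In Tlr8 the AKBA libraries sit between 8.56 and 12.9 CPM and the control libraries between 17.6 and 19.1 CPM.

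Tlr8, a receptor for single-stranded RNA, lies on the minus strand of chromosome X from 167242696 to 167264329 (GRCm38, all gene positions from GENCODE M21). It was at 10.2, 8.56 and 12.9 CPM in AKBA replicates 1 to 3 and at 19.1, 17.6 and 19.1 CPM in control replicates 1 to 3. The lowest control library thus stood 4.69 CPM above the highest AKBA library. The group means were 10.6 ± 2.2 and 18.6 ± 0.884 CPM (SD, n = 3 each). The log2 fold change was -0.82 ± 0.17 (SE, 95% interval -1.21 to -0.42), with an edgeR adjusted p of 0.331. By unadjusted p (0.00153) the gene ranked 57 of the 17023.

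Tlr13, which recognises bacterial ribosomal RNA, lies on the plus strand of chromosome X from 106143204 to 106160493. It was at 7.11, 7.23 and 8.99 CPM in the AKBA libraries and at 12.8, 13.2 and 17.1 CPM in the control libraries. No AKBA library came within 3.82 CPM of a control library. Its means were 7.78 ± 1.05 and 14.4 ± 2.37 CPM. The log2 fold change was -0.88 ± 0.18 (95% interval -1.29 to -0.47), with an edgeR adjusted p of 0.331 and rank 41 by unadjusted p (0.00121).

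Tlr7, the single-stranded RNA receptor on which imiquimod acts in mice, is the neighbour of Tlr8 (chromosome X, 167304929 to 167330558, minus strand). It was at 15.8, 13.8 and 15.5 CPM in the AKBA libraries and at 25.9, 14.0 and 23 CPM in the control libraries. The AKBA libraries lay close together, while control replicate 2 fell among them and the other 2 control libraries stood above. The log2 fold change was -0.48 ± 0.22, with a 95% interval of -1.0 to 0.04 that includes 0 (edgeR adjusted p = 0.404). Without control replicate 2 the value was -0.71, and without control replicate 1 it was -0.29.

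The 3 receptors on chromosome X were all lower, and the 537 tested genes of that chromosome had a median log2 fold change of 0.01. The Y-linked transcripts Ddx3y (1409 to 1770 counts) and Eif2s3y (1225 to 1542 counts) were abundant in all 6 libraries, and the X-linked Xist, made by the inactive X of females, had 0 to 9 counts. No library thus stood apart by these sex-linked transcripts.

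Tlr9, the receptor for unmethylated CpG DNA (chromosome 9, 106222598 to 106226883, plus strand), was at 5.59, 5.0 and 7.16 CPM with AKBA gel and at 9.90, 8.12 and 8.91 CPM with control gel. The groups stayed apart by 0.964 CPM. Its log2 fold change was -0.60 ± 0.19 (95% interval -1.04 to -0.16, edgeR adjusted p = 0.334).

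Tlr3, which senses double-stranded RNA and signals through Ticam1 instead of Myd88, was the exception (chromosome 8, 45395665 to 45411080, minus strand). It was at 9.22, 8.24 and 10 CPM in the AKBA libraries and at 9.43, 9.04 and 6.99 CPM in the control libraries, so the groups overlapped. The log2 fold change was 0.11 ± 0.17, and its 95% interval of -0.29 to 0.51 leaves out a reduction as large as the estimates for Tlr8 and Tlr13. The sign rested on control replicate 3, without which the value was -0.01. The annotation places 1 antisense gene over Tlr3 and no gene over any other receptor, and the sources used here do not state whether counting used the strand.

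**Figure D2:**
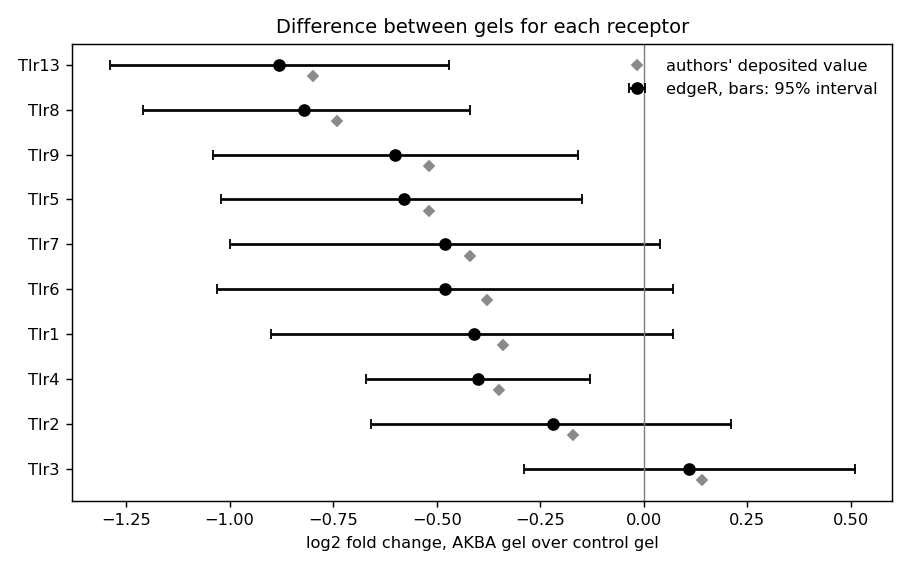
Log2 ratio of AKBA gel to control gel for each receptor, ordered from lowest to highest, as estimated with edgeR (black circles with 95% intervals) and as deposited by the authors (grey diamonds). The intervals of Tlr13, Tlr8, Tlr9, Tlr5 and Tlr4 lie below 0, and the other 5 include it.

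Among the surface receptors, Tlr4 senses lipopolysaccharide (chromosome 4, 66827584 to 66930284, plus strand). It was at 12.7, 13.3 and 13.5 CPM in the AKBA libraries and at 18.3, 16.1 and 17.7 CPM in the control libraries. The groups were 2.56 CPM apart, and the log2 fold change was -0.40 ± 0.12 (95% interval -0.67 to -0.13, edgeR adjusted p = 0.331). The flagellin receptor Tlr5 (chromosome 1, 182954788 to 182976044, plus strand) was at 12.9, 8.56 and 12.5 CPM with AKBA gel and at 15.6, 19.3 and 16.0 CPM with control gel. AKBA replicate 2 was the lowest library and control replicate 2 the highest, and the log2 fold change was -0.58 ± 0.19 (95% interval -1.02 to -0.15, edgeR adjusted p = 0.334).

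Tlr2 and its partners Tlr1 and Tlr6, which form pairs that bind bacterial lipoproteins, had intervals that include 0. Tlr2 (chromosome 3, 83836272 to 83841767, minus strand) was at 12.5, 8.34 and 10.9 CPM with AKBA gel and at 12.9, 10.7 and 13.6 CPM with control gel. Its groups overlapped, and its log2 fold change of -0.22 ± 0.19 was -0.08 without AKBA replicate 2, -0.36 without AKBA replicate 1 and -0.01 with the pair of AKBA replicate 2 and control replicate 3 left out.

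Tlr1 and Tlr6 are neighbours on the minus strand of chromosome 5 (64924679 to 64933563 and 64952031 to 64960097). Tlr1 was at 6.72, 4.94 and 8.01 CPM with AKBA gel and at 9.52, 7.90 and 8.82 CPM with control gel, with a log2 fold change of -0.41 ± 0.21. Its groups overlapped by 1 pair of libraries, AKBA replicate 3 and control replicate 2. Without AKBA replicate 2 its value was -0.25, and without AKBA replicate 3 it was -0.57. Tlr6, the lowest of the 10 per length too, was at 3.09, 2.18 and 3.54 CPM against 4.24, 3.76 and 4.31 CPM, with a log2 fold change of -0.48 ± 0.24. Its groups did not overlap, but its interval of -1.03 to 0.07 includes 0, and its value was -0.31 without AKBA replicate 2. Of the 50-base windows of annotated Tlr1 transcripts 13.6% also occur in Tlr6, and 12.3% of those of Tlr6 occur in Tlr1, so the split of reads between this pair is uncertain. No other pair of mouse Toll-like receptor genes shared such a window.

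In the authors' deposited table the 10 log2 fold changes had the same signs, from -0.8 for Tlr13 to 0.14 for Tlr3. The authors' deposited table gives adjusted p-values of 0.0282 for Tlr13 and 0.0312 for Tlr8, beside 1.26% of the 17023 genes tested here that were lower with an adjusted p below 0.05 (0.488% of all genes of that table, 19134 of which had no count in any library). Neither is among the 273 genes marked significant in the authors' deposited table, all of which had a log2 fold change of at least 1.0 in size. The other 8 receptors had adjusted p-values of 0.254 (Tlr5) to 0.992 (Tlr3) in the authors' deposited table.

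Compared per length, by the authors' FPKM (fragment counts scaled by gene length and library size), the order of the receptors differed between gels. With control gel Tlr8 (5.13 ± 0.287 FPKM, SD, n = 3) and Tlr7 (5.06 ± 1.47 FPKM) had the highest means, followed by Tlr2 (4.05), Tlr5 (3.52), Tlr13 (3.46), Tlr4 (3.09), Tlr1 (2.59), Tlr9 (2.56), Tlr3 (1.92) and Tlr6 (1.09 ± 0.0643 FPKM). Of the 9 pairs of neighbours in this order 3 had libraries that did not overlap, namely Tlr4 above Tlr1, Tlr9 above Tlr3 and Tlr3 above Tlr6. With AKBA gel the means ran from Tlr7 (3.73 ± 0.359 FPKM) over Tlr2 (3.56), Tlr8 (2.99 ± 0.767 FPKM), Tlr4 (2.40), Tlr5 (2.39), Tlr3 (2.11), Tlr1 (1.99), Tlr13 (1.93) and Tlr9 (1.73) to Tlr6 (0.8 ± 0.215 FPKM). Here Tlr9 above Tlr6 was the 1 pair of neighbours without overlap. Tlr13 took rank 5 with control gel and rank 8 with AKBA gel, and Tlr3 ranks 9 and 6.

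Macrophage markers were lower beside the receptors. All 17 listed markers were tested and all 17 had a log2 fold change below 0 (49.6% of all tested genes did), with a median of -0.39. At an unadjusted edgeR p below 0.05, 9 of them were lower, where 7.01% of all tested genes were. None of the 17 passed at an adjusted p below 0.05 by edgeR. By DESeq2 3 did, namely Msr1, Cd163 and Mrc1, where 1.33% of the genes it adjusted were called lower. The summed level of the 17 was 1788 to 1936 CPM with AKBA gel and 2025 to 2737 CPM with control gel. No defining marker was at 0. Lower values were not limited to macrophage markers: endothelial markers were lower in 7 of 7 (median -0.34, 2 at an unadjusted p below 0.05) and fibroblast markers in 7 of 8 (-0.29, none at that level). Suprabasal keratinocyte markers were higher in 7 of 7 (0.41, 2 at that level, where 6.45% of all tested genes were higher). Basal keratinocyte markers were mixed, with 5 of 8 lower (-0.19, 3 lower and 1 higher at that level). By DESeq2 the basal markers Krt14 (lower) and Krt15 (higher) and the suprabasal marker Lor (higher) had an adjusted p below 0.05. In bulk tissue, fewer cells of a type and less RNA per cell cannot be told apart.

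To set the receptors against these markers, the mean log2 CPM of the 17 macrophage markers was subtracted from the log2 CPM of each receptor in the same library. For 7 of the receptors this left overlapping groups, with differences (AKBA minus control) of 0.02 for Tlr7, 0.05 for Tlr4, 0.01 for Tlr1, -0.05 for Tlr6, 0.21 for Tlr2, -0.16 for Tlr9 and -0.15 for Tlr5. Tlr13 remained below control in every library (mean log2 ratios of -2.63 ± 0.13 against -2.21 ± 0.12, SD, n = 3 each), as did Tlr8 (-2.21 ± 0.27 against -1.82 ± 0.11), where AKBA replicate 3 (-1.97) came close to control replicate 3 (-1.95). Tlr3 stood above control in every library (-2.40 ± 0.15 against -2.96 ± 0.37). Each of these 3 differences had an exact 2-sided permutation p of 0.1, the smallest that 3 against 3 libraries can give, and 0.333 after adjustment over the 10 receptors. A ratio within a library shows unequal change and not which side moved.

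**Figure D3:**
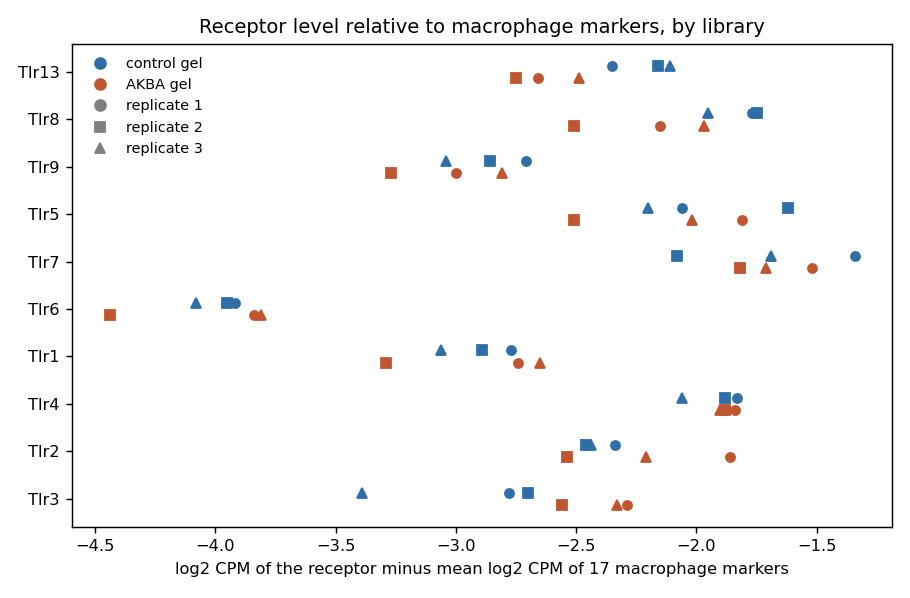
Log2 CPM of each receptor minus the mean log2 CPM of 17 macrophage markers in the same library (linear axis of log2 units), with control gel in blue, AKBA gel in orange and a marker shape for each replicate. The orange points lie below the blue ones for Tlr13 and Tlr8, above them for Tlr3, and among them for the other 7 receptors.

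Markers of other immune cells were measured beside them. Of 12 neutrophil markers 9 were tested and all 9 were lower (median -1.23). At an unadjusted p below 0.05, 5 were lower, where 7.01% of all tested genes were. In 2 of the 9 the groups did not overlap and AKBA gel was the lower one, an order found in 9.1% of all tested genes. Single log2 fold changes ran from -2.03 (Mmp9) to -0.11 (Camp). The summed level was 315 to 854 CPM against 722 to 3424 CPM. Most of this sum came from S100a8 (292 ± 108 against 687 ± 578 CPM) and S100a9 (297 ± 168 against 998 ± 868 CPM), whose groups overlapped. Of the genes that define neutrophils, Ly6g had 0 counts in all libraries and Ngp 0 to 2. T cell markers were lower in 8 of 8 tested (median -0.28, 1 at an unadjusted p below 0.05) and mast cell markers in 6 of 6 (-0.34, none at that level). The 12 Langerhans and dendritic cell markers had a median of 0.07, with 1025 to 1530 CPM against 986 to 1164 CPM in sum. Plasmacytoid dendritic cell markers, of interest because these cells are rich in Tlr7 and Tlr9, summed to 20 to 23 CPM against 17.1 to 27.1 CPM. The B cell markers summed to 2.05 to 2.80 CPM against 2.10 to 3.78 CPM. The part of the cell types of all these lists in the receptor values was not tested.

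The genes whose pattern over the 6 libraries was closest to Tlr8, by the root mean square difference of mean-centred log2 CPM among 12260 other genes, were Cd163 (0.064), Inpp5d (0.084), Rassf2 (0.094), Fyb (0.102) and Cmah (0.103). Cd163 is a scavenger receptor of macrophages, and it was at 88.9 ± 14.6 CPM in AKBA and 154 ± 12.0 CPM in control libraries (SD, n = 3 each). Among the other receptors Tlr9 ranked 15 (0.128) and Tlr13 ranked 29 (0.153) by likeness to Tlr8, and Tlr7 ranked 1135 (0.333). The genes closest to Tlr7 were Islr (0.104), Gbp5 (0.106), Bend4 (0.12), Fcrls (0.124) and Cd84 (0.126), and of the other receptors Tlr4 ranked highest, at 212, with Tlr6 left out as too low for this comparison. The neighbours Tlr7 and Tlr8 thus had unlike patterns, with control replicate 2 low for Tlr7 and level with the other control libraries for Tlr8.

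Of 69 listed genes that bring ligands to the receptors, traffic them, signal below them or answer to them, 64 were tested and none passed at an adjusted p below 0.05 by edgeR. At an unadjusted p below 0.05, 19 were lower (7.01% of all tested genes were) and 1 was higher (6.45%). The median log2 fold change of the 64 was -0.14. DESeq2 gave 9 of them, all lower, an adjusted p below 0.05, where 1.33% of the genes it adjusted were called lower. The 9 were Lbp, Hsp90b1, Lgmn, Tirap, Fos, Bcl3, Il1rl1, Il1b and Cxcl1.

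Among the 6 ligand carriers and coreceptors, Cd14 and Lbp, which hand lipopolysaccharide to Tlr4, were lower at an unadjusted p below 0.05. The share of all tested genes lower at that level was 7.01%. Lbp was at 36.5, 26.7 and 38.9 CPM with AKBA gel and at 53.3, 49.1 and 85.9 CPM with control gel, without overlap (log2 fold change -0.88 ± 0.24). Cd14, which also stands in the macrophage list, was at 13.9 ± 0.517 against 18.8 ± 1.67 CPM (-0.44 ± 0.12). Cd36, a coreceptor of Tlr2 with Tlr6, named for its CPM, was at 172 ± 51.4 against 158 ± 25.8 CPM (0.12 ± 0.22).

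The genes that fold, carry and cleave the receptors were lower in 8 of 9, 4 of them at an unadjusted p below 0.05. Of all tested genes, 49.6% were lower and 7.01% were lower at that level. Unc93b1, which escorts the endosomal receptors out of the endoplasmic reticulum, was at 104, 91.0 and 114 CPM with AKBA gel and at 154, 115 and 144 CPM with control gel. Its groups touched without overlapping, and its log2 fold change was -0.42 ± 0.15. The chaperone Hsp90b1, on which folding of most of the family depends, was at 213 ± 19.3 against 298 ± 30.5 CPM (-0.48 ± 0.13). Lgmn, an endosomal protease known to cleave Tlr9, was at 107 ± 18.7 against 180 ± 25.1 CPM (-0.76 ± 0.17, edgeR adjusted p = 0.331, DESeq2 adjusted p = 0.00898). The protease Ctsb, named for its CPM, was at 1020 ± 118 against 1232 ± 62.9 CPM (-0.27 ± 0.16).

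Of 6 adaptors, Myd88, used by every member except Tlr3, was measured at 40.6, 42.1 and 35.5 CPM in the AKBA libraries and at 44.5, 52.8 and 56.2 CPM in the control libraries. The groups did not overlap and the log2 fold change was -0.38 ± 0.13. Tirap, which links Myd88 to Tlr2 and Tlr4, was at 9.66 ± 1.42 against 15.5 ± 2.22 CPM (-0.68 ± 0.17). Of 14 kinases and ubiquitin ligases 1 was lower at an unadjusted p below 0.05, near the share of all tested genes (7.01%). It was the ligase Traf3 (40.0 ± 3.12 against 51.6 ± 1.96 CPM, -0.37 ± 0.10). The others included Irak4 (-0.19 ± 0.13), Traf6 (-0.17 ± 0.14), Irak2 (0.52 ± 0.23) and, named for its CPM, Tab2 (0.19 ± 0.12). The median of these 14 was -0.05.

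Among 8 transcription factors 2 were lower at an unadjusted p below 0.05, where 7.01% of all tested genes were. Fos, part of AP-1, was at 10.5, 11.9 and 10.4 CPM with AKBA gel and at 19.3, 39.4 and 54.4 CPM with control gel (log2 fold change -1.79 ± 0.34), and Nfkb1 had a log2 fold change of -0.29 ± 0.11. The interferon regulatory factors Irf7 (14.2 ± 5.17 against 13.8 ± 1.86 CPM, 0.03 ± 0.25) and Irf5 (29.0 ± 4.10 against 27.1 ± 3.68 CPM, 0.10 ± 0.15), which act below Tlr7 and Tlr9, had overlapping groups.

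Of 12 genes listed here as brakes on the pathway, 4 were lower and 1 higher at an unadjusted p below 0.05. At that level 7.01% of all tested genes were lower and 6.45% higher. The 4 lower genes were Bcl3, Socs1, Il1rl1 and Nfkbiz, and whether each acts as a brake in this tissue was not tested. Bcl3, a nuclear IκB protein, was at 15.7 ± 0.470 CPM in AKBA and 33.2 ± 11.2 CPM in control libraries (-1.08 ± 0.25), and the cytokine signalling inhibitor Socs1 at 4.78 ± 0.400 against 8.99 ± 3.01 CPM (-0.91 ± 0.26). The gene that was higher, chosen for mention after its value was seen, was the deubiquitinase Cyld (52.6 ± 3.95 against 39.2 ± 6.80 CPM, 0.43 ± 0.14). Tollip, a brake named for its CPM, was at 146 ± 21.4 against 146 ± 27.7 CPM.

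Target genes were scarce, and 9 of 14 could be tested, with a median log2 fold change of -0.88 and 4 lower at an unadjusted p below 0.05. Among all tested genes 7.01% were lower at that level. The chemokine Cxcl1 was at 0.589, 0.159 and 0.511 CPM with AKBA gel and at 1.0, 3.97 and 2.54 CPM with control gel (log2 fold change -2.54 ± 0.61). Ptgs2, the inducible prostaglandin synthase, was at 0.687, 1.12 and 1.02 CPM against 1.14, 14.5 and 7.33 CPM (-3.02 ± 0.81). The cytokine Il1b was at 1.77, 1.44 and 2.26 CPM against 2.52, 14.1 and 4.17 CPM (-1.93 ± 0.62). In all 3 genes control replicate 1 was the lowest control library and stood near the AKBA libraries, unlike in Tlr8, where it was as high as the other control libraries. Ifnb1 had no count in any library, which allows up to 3 counts or 0.128 to 0.159 CPM in each.

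**Figure D4:**
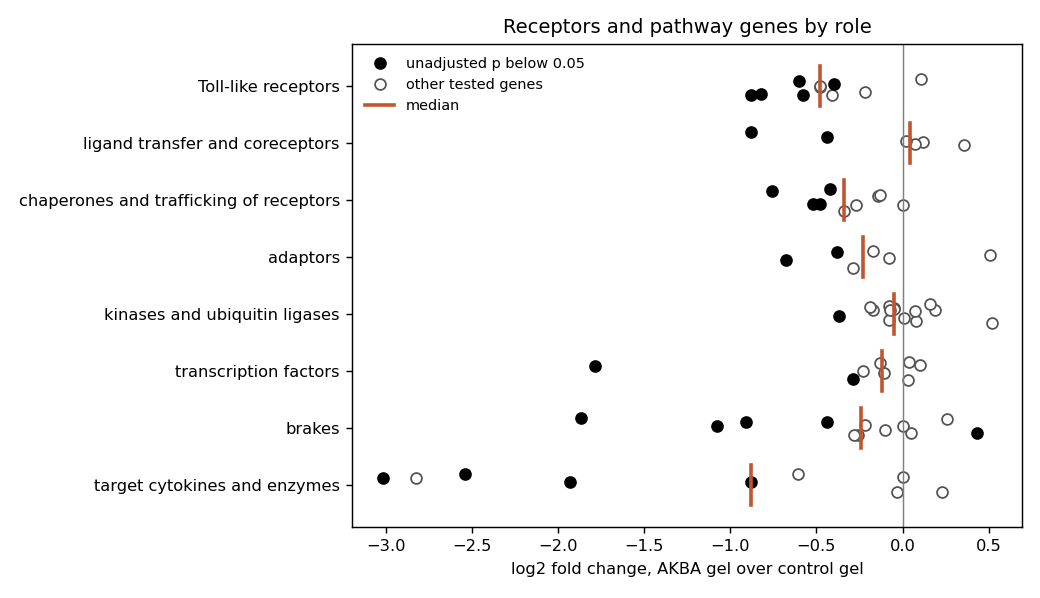
Log2 ratio of AKBA gel to control gel for the 10 receptors and 64 tested pathway genes, grouped by role, with filled circles for an unadjusted edgeR p below 0.05, open circles for other tested genes and orange bars for the median of each group (vertical spread within a row carries no value). The medians run from -0.88 for target genes to 0.04 for ligand carriers and coreceptors, with the receptors at -0.48.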

How the data were processed

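The deposited table held whole-number counts per gene for 6 libraries, which the authors made from RNA of epidermis that had been split from dermis with Dispase II, extracted with TRIzol and prepared with a TruSeq kit, per the labels' protocols. It also held FPKM values by the authors, used here only to compare levels between genes. The log2 fold changes, p-values and adjusted p-values of the authors' own comparison were deposited beside them. The submitters' processing notes name CASAVA 1.8, RSEM, edgeR and the build GRCm38, and the sources used here do not state their roles, settings, annotation or use of strand.

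Counts were fitted across all genes with edgeR 4.0.16 in R 4.3.3 (TMM scaling, default low-count filter, 17023 genes tested, 2-sided quasi-likelihood F test, Benjamini-Hochberg adjustment, threshold 0.05). The SE is the size of the log2 fold change over the square root of F. CPM are TMM-scaled, and log2 CPM used a prior count of 2. Alternatives were DESeq2 1.42.0, its size factors in edgeR, other filters, a replicate block and left-out libraries. The fit was tested on simulated data. No 2 libraries of a group were alike within sampling noise (lowest ratio of chi-square to its degrees of freedom 30.8). The members, lists and alternatives were chosen with earlier results of these data known. Pathway genes were named by the 2 smallest p-values and the highest level per role, with Myd88, Unc93b1, Irak4, Traf6, Irf7 and Irf5 always named. The filter on low counts kept all 10 receptors. Floors of 3 counts cover counting error only. Flg, listed in several rows, was left out of the keratinocyte markers.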

Additional observations from a re-analysis of the deposited data

How the results depend on the processing

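The number of genes past the threshold in edgeR was 0 with DESeq2 size factors, either other filter, or the pair AKBA replicate 2 and control replicate 3 left out, and 0 to 14 with 1 library left out (14 without control replicate 1). The DESeq2 Wald test called 304 genes, 2 of them receptors, and the cause of this difference between tools was not tested. The number of receptors at an unadjusted p below 0.05 was 5 or 6 in every alternative except the pair left out, where it was 3 with fewer libraries. No label pairs the samples by replicate number, and deviations of same-numbered libraries from their group means correlated at 0.072, 0.019 and -0.327. With 3 libraries per group these correlations cannot decide whether the samples were paired. With a replicate block 0 genes passed, and 5 receptors and 18 pathway genes had an unadjusted p below 0.05, so the block changed no call at the adjusted threshold. The stricter filter left Tlr6 untested. All receptors but Tlr3 kept their direction in every alternative. Tlr3 ranged from -0.01 to 0.20 with 1 library left out. Tlr8 ranged from -0.98 to -0.67 and Tlr13 from -0.99 to -0.69 over all alternatives. Relative to macrophage markers, leaving out 1 library turned the sign of 5 small differences, which ranged from -0.11 to 0.21 for Tlr1, -0.02 to 0.10 for Tlr4, -0.30 to 0.04 for Tlr5, -0.16 to 0.16 for Tlr6 and -0.17 to 0.20 for Tlr7. With the 5 most abundant macrophage markers the Tlr1 value was 0.0. With all listed macrophage markers and 1 library left out, Tlr8 ranged from -0.50 to -0.24, Tlr13 from -0.50 to -0.37 and Tlr3 from 0.35 to 0.69. Depth limits Tlr6 most, with 41 to 90 counts per library.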

Other observations

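The mouse genome has 2 further Toll-like receptor genes, which were not among the 10. Tlr11, which recognises profilin of parasites, had 25, 22 and 45 counts with AKBA gel and 29, 24 and 18 with control gel (1.44 ± 0.416 against 1.10 ± 0.263 CPM, log2 fold change 0.40 ± 0.32). Its groups overlapped. Its partner Tlr12 was below the filter, with 4, 5 and 14 counts against 4, 6 and 14.

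Single Langerhans and dendritic cell genes differed from each other in direction. Cd207, the langerin of these cells, was at 10 ± 2.63 CPM in AKBA and 4.41 ± 1.5 CPM in control libraries, without overlap (log2 fold change 1.18 ± 0.31, edgeR adjusted p = 0.331, DESeq2 adjusted p = 0.0246). Ccr7, a receptor of migrating dendritic cells, was at 0.568 ± 0.153 against 1.16 ± 0.295 CPM (-1.04 ± 0.33, edgeR adjusted p = 0.334, DESeq2 adjusted p = 0.318). Both were picked from the marker list after their values had been seen.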
